A study of Mus musculus with 18 samples.

Results

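The genes described here code for 51 proteins of the lysosome: 26 hydrolases, 4 luminal cofactors, 7 membrane proteins and 14 subunits or accessory proteins of the proton pump. They were taken as a fixed list of gene symbols, and all 51 were present in both deposited tables of raw counts, among 24421 symbols. The list was not chosen by measured values, but it was put together with earlier results of these data known. Bulk RNA sequencing covered 2 cell types, microglia and astrocytes, which had been isolated from whole brain by fluorescence-activated sorting. The 9 mice contributed a pair of libraries apiece, 18 in total. The 4 WT mice carried no knock-in, and the 5 APP mice had the genotype APP_NLGF/NLGF, in which the mouse App gene carries a humanised and mutated amyloid precursor sequence on both copies. All were untreated C57BL/6j mice of C3WT genotype by their library names, their age and the antibodies of the sort are not given here, and the C3-deficient mice named in the series title were not analysed here. The WT group held 1 female (replicate 1) and 3 males, the APP group 1 male (replicate 1) and 4 females, so sex was a covariate of each comparison of genotypes within a cell type.

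The lysosome is the acidic organelle in which cells break down material taken up from outside or delivered by autophagy. Its hydrolases act at low pH, which the proton pump maintains: the membrane-embedded V0 sector carries the protons and the V1 sector splits ATP to drive them. The luminal cofactors Npc2, Gm2a and Psap (through its products) present lipids to the hydrolases or carry them away, and Grn (progranulin) is counted with them here. Heavily glycosylated membrane proteins line the organelle and carry or anchor other components. Microglia, the phagocytes of the brain, are rich in lysosomes, and loss of many of these hydrolases causes a lysosomal storage disease with damage to the brain.

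Many lysosomal genes are known to carry an E-box with the letters TCACGTG near their start sites, the core of the element bound by the transcription factor TFEB and its relatives, and the sequences are shown because most members moved together in microglia. Promoter windows of RefSeq on GRCm38.p6, from 250 bases before to 50 bases after a start site, were found for 43 of the 51 genes. TCACGTG on either strand lay in the window of 13 of these 43 genes, 30.2%, against 6.87% of the 10016 genes tested in microglia that had a window and 4.29% of all 27025 genes with a window. The shorter CACGTG, which every TCACGTG contains, gave the same 13 genes against 11.6% of the genes tested. The variant TCATGTG was found in 7 genes, 16.3%, against 2.60%. Each stretch below lies before a RefSeq start site of 1 of 9 genes that hold the letters fully upstream of it. The genes were picked by their change or level. For Lgmn, Cln3 and Atp6v1a that start site, and the stretch, lie within the annotated gene. Their GENCODE vM21 5′ ends are further upstream, at 102439813, 126585817 and 44139705. The stretches are written 5′ to 3′ on the strand of the gene, with each TCACGTG or its reverse complement in capitals. The stretches lie at chr8:13159079-13159160 on the plus strand for Lamp1, chr9:114401009-114401055 on the plus strand for Glb1, chr12:102439116-102439162 on the minus strand for Lgmn, chrX:134601173-134601253 on the minus strand for Gla and chr11:119267802-119267848 on the plus strand for Gaa. Those of Cln3, Sgsh, Atp6v0b and Atp6v1a lie on the minus strand at chr7:126583331-126583405, chr11:119355513-119355559, chr4:117887330-117887386 and chr16:44139364-44139411.
Lamp1: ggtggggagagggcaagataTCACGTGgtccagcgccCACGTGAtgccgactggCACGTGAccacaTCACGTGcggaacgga
Glb1: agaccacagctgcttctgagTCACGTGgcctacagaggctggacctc
Lgmn: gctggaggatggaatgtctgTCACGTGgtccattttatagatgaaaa
Gla: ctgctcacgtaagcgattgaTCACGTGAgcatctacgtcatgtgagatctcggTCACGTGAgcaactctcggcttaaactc
Gaa: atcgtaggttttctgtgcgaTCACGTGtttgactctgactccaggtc
Cln3: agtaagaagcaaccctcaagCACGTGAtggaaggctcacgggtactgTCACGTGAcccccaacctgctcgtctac
Sgsh: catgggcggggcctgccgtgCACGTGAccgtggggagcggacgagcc
Atp6v0b: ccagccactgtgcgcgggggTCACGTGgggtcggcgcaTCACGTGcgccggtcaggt
Atp6v1a: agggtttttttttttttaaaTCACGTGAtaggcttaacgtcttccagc

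Ctsa, Arsa and Naglu also held the letters upstream of a start site, which for Ctsa lay within the annotated gene. Atp6v0d1 held them across its start site, and these genes are not shown. Lamp1 held 4 separate matches between 62 and 10 bases before its start site, and Gla, Cln3 and Atp6v0b held 2 each. By class the letters lay in the windows of 8 of 23 hydrolase genes, 2 of 6 membrane protein genes, 3 of 10 pump genes and 0 of 4 cofactor genes. They did not separate the genes by their change in microglia, which is given further on: they were found for 9 of the 29 genes that rose, 31%, and for 4 of the 14 that did not, 28.6%, and among the latter were Sgsh and Lgmn, which fell. Over all genes that rose in microglia and had a window, 8.25% held the letters. A match describes these letters only, and binding was not measured.

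Libraries held 8834866 to 11700620 counts in WT microglia, 11858295 to 18363154 in APP microglia, 10569776 to 21865752 in WT astrocytes and 18125387 to 22522407 in APP astrocytes. The summed CPM (counts scaled to a common library size) of 10 microglial markers was 33243 to 44736 in the microglia libraries and 108 to 332 in the astrocyte libraries, while that of 10 astrocyte markers was 31927 to 45109 in WT astrocytes and 24065 to 28206 in APP astrocytes. WT astrocyte replicates 1 and 4 stood apart from the other 7 astrocyte libraries: their 10 endothelial markers summed to 488 and 419 CPM, against 2398 and 3082 in the other WT libraries and 2267 to 3591 in APP. The same mice stood apart in microglia by 10 markers of vascular mural cells. These summed to 31.2 and 32.8 CPM in WT replicates 1 and 4, 245 and 207 in WT replicates 2 and 3, and 276 to 330 in APP. The part of mural cells in the microglial results was not tested. In microglia, 10 markers of border-associated macrophages, another brain phagocyte, summed to 1806 to 2099 CPM in WT and 401 to 699 in APP, 7 of them having fallen and 1 risen, and their part in the results below was not tested. In bulk libraries, fewer cells of a type and less RNA per cell cannot be told apart.

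Per length of transcript, Psap was the most abundant of the 51 genes in all 4 groups. It codes for prosaposin, the precursor of the saposins that help sphingolipid hydrolases, and stood at 1384 ± 74.1 RPKM (counts per kilobase of exon, scaled to library size, SD, n = 4) in WT microglia, 1567 ± 161 (n = 5) in APP microglia, 692 ± 71.3 in WT astrocytes and 633 ± 37.7 in APP astrocytes. In WT microglia it was followed by Lgmn, the peptidase legumain, at 1370 ± 136 RPKM, so that the leading pair did not differ beyond their spread. Laptm5, a lysosomal membrane protein of blood-derived and microglial cells, came next at 903 ± 89.7, then Grn (progranulin) at 443 ± 19.5, Hexa (a hexosaminidase subunit that acts on GM2 ganglioside) at 336 ± 19.6 and Lamp1, a main glycoprotein of the lysosomal membrane, at 335 ± 21.5. In WT astrocytes Lamp1 was second at 213 ± 12.2 RPKM, followed by Smpd1 (acid sphingomyelinase) at 88.6 ± 20.9 and Gaa (acid alpha-glucosidase, which degrades glycogen) at 81.4 ± 16.8, which overlapped. Among pump genes the accessory protein Atp6ap1 was highest in WT microglia at 114 ± 7.67 RPKM, and Atp6v0d1 of the V0 sector was level with Atp6ap1 in WT astrocytes at 65.7 ± 9.51 against 65.2 ± 2.56. Atp6v0c, the proton-carrying ring subunit, was lowest of the 51 in all 4 groups at 0.305 to 0.541 RPKM, with counts from 11. A pseudogene copy matches its transcript at 99.8% over 465 bases, so its reads are uncertain.

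**Figure D1:**
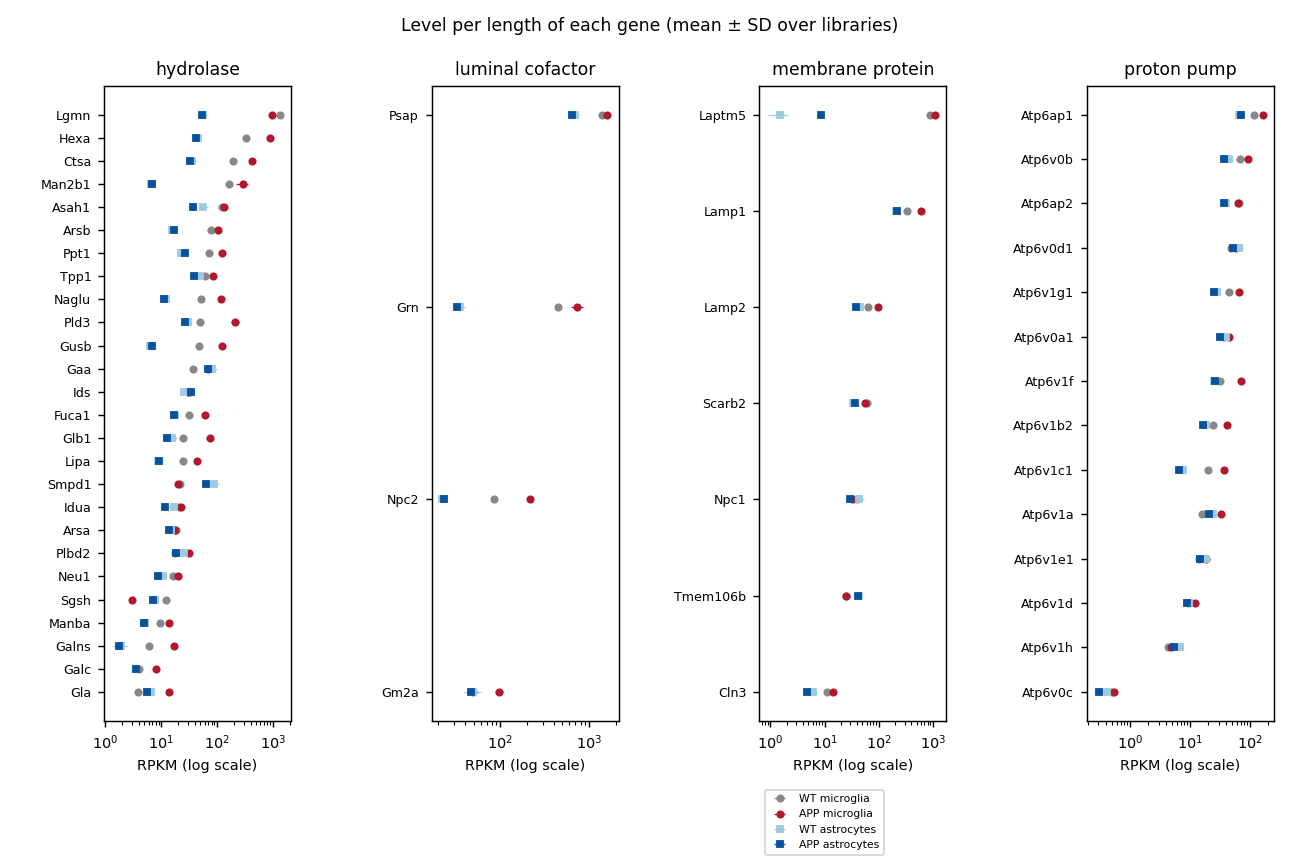
Level of each of the 51 lysosomal genes per length (RPKM, log axis), as mean ± SD over 4 WT or 5 APP libraries of each cell type, with 1 panel per class and genes ordered by WT microglia. Psap leads in all 4 groups, Atp6v0c is lowest in all of them, and Laptm5 ranges from 1.50 RPKM in WT astrocytes to 1107 in APP microglia.

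Most of the set was higher in microglia than in astrocytes. In WT mice 35 of the 51 genes were higher in microglia and 9 lower (edgeR quasi-likelihood test, Benjamini-Hochberg adjusted p under 0.05, the threshold used throughout), against 39% of all genes tested that were higher and 40.4% that were lower, 79.3% in either direction. Their median log2 difference was 0.65, against -0.02 over all genes. In APP mice 43 were higher and 5 lower, against 41% and 43.9% of all genes and 84.8% in either direction, and the median was 1.29. Man2b1 (alpha-mannosidase), Lgmn and Grn were higher in WT microglia by 4.63 ± 0.12, 4.60 ± 0.19 and 3.67 ± 0.14 on the log2 scale (± SE). Laptm5 was higher by 9.22 ± 0.40, but it lay at only 2.88 to 8.56 CPM in WT astrocytes. The genes lower in WT microglia included Smpd1 at -2.05 ± 0.16, Gaa at -1.11 ± 0.15, Gla (alpha-galactosidase A) at -0.76 ± 0.13, Tmem106b (a membrane protein of late endosomes and lysosomes) at -0.76 ± 0.08 and 4 pump genes, among them Atp6v1a at -0.63 ± 0.08 and Atp6v0d1 at -0.47 ± 0.11. In APP mice Gla, Plbd2, Atp6v1a and Atp6v1e1 were higher in microglia instead, and Smpd1, Tmem106b, Sgsh, Ids and Atp6v1h were the 5 lower ones.

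In microglia, most of the lysosomal genes were higher in APP than in WT mice. Of the 51 genes 34 rose and 2 fell, against 19.1% of the 13116 genes tested that rose, 19.2% that fell and 38.3% called in either direction. The median log2 fold change of the 51 was 0.50, against 0.01 over all genes. The APP libraries were all higher than the WT libraries, with no overlap, for 35 of the 51 genes and all lower for 2, where 19.8% and 19.2% of all genes tested did so. Together the 51 genes took 2.00% to 2.27% of the counts of a WT microglia library and 2.71% to 3.11% of an APP one. APP replicate 5 had the highest summed level of the set, at 33767 CPM against 26696 to 29766 in the other APP libraries and 19364 to 23176 in WT.

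**Figure D2:**
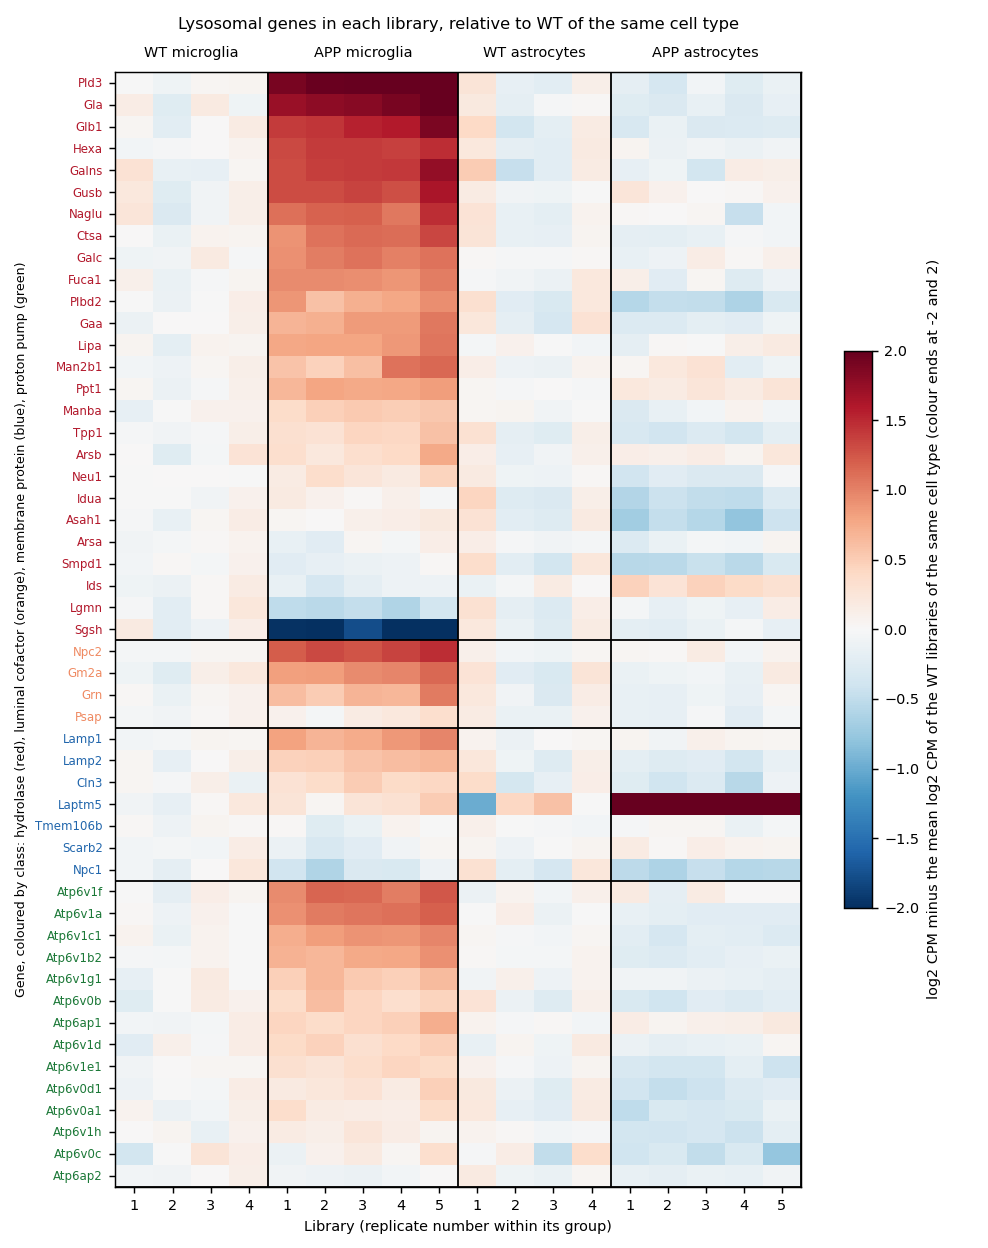
Each of the 51 genes (rows, grouped by class and ordered within it by the change in microglia) in each of the 18 libraries (columns), as log2 CPM minus the mean log2 CPM of the WT libraries of the same cell type. The APP microglia columns are red for most genes in every class, the APP astrocyte columns are mostly pale blue, and Sgsh in APP microglia and Laptm5 in APP astrocytes stand out.

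Of the 26 hydrolases 18 rose and 2 fell in microglia, with a median log2 fold change of 0.77. Pld3, an exonuclease that degrades nucleic acids in the lysosome, had the largest rise. It stood at 132, 125, 137 and 137 CPM in WT libraries and at 495, 520, 569, 537 and 745 in APP libraries, so that the groups lay far apart. Its log2 fold change was 2.03 ± 0.13 (SE) with an adjusted p of 6.3e-07. Gla, which removes galactose from glycolipids, went from 9.81 to 13.2 CPM in WT to 38.3 to 47.1 in APP, a log2 fold change of 1.75 ± 0.11 with an adjusted p of 6.1e-07. Glb1 (beta-galactosidase) stood at 60.0 to 77.5 CPM in WT and 182 to 254 in APP and rose by 1.49 ± 0.12. Of its exon bases 165, 5.49%, overlap those of Tmppe on the same strand. Tmppe had 599 to 810 reads in WT microglia libraries and 662 to 1148 in APP ones. Hexa, which acts on GM2 ganglioside, stood at 595, 607, 622 and 653 CPM in WT and 1546, 1636, 1637, 1600 and 1715 in APP and rose by 1.39 ± 0.08. Gla, Glb1 and Hexa belong to the breakdown of sphingolipids, of whose 8 hydrolases here 5 rose: Hexa, Glb1, Gla, Galc (galactosylceramidase) at 1.01 ± 0.09 and Neu1 (sialidase) at 0.24 ± 0.08. The call of Neu1 was lost under 12 of 20 alternatives. The other 3, Asah1 (acid ceramidase), Smpd1 and Arsa (arylsulfatase A), did not pass the threshold, with log2 fold changes between -0.13 and 0.08.

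The enzymes of glycosaminoglycan breakdown were split. Galns, Gusb (beta-glucuronidase) and Naglu rose by 1.31 ± 0.12, 1.28 ± 0.11 and 1.08 ± 0.12, Arsb, Ids and Idua did not pass the threshold, and Sgsh fell. Sgsh codes for sulfamidase, which acts on heparan sulfate, as Naglu does. It stood at 55.9, 42.6, 46.2 and 54.4 CPM in WT libraries and at 12.5, 10.7, 14.4, 11.2 and 12.5 in APP libraries, with no overlap. Its log2 fold change was -2.07 ± 0.13 with an adjusted p of 3.9e-07, and it lay between -2.20 and -1.82 in every alternative processing tried. The gene lies on chromosome 11 from 119343425 to 119355536 on the minus strand (GENCODE vM21, GRCm38), and 955 of its exon bases, 21.6%, overlap those of Card14 on the other strand. Card14 had between 0 and 2 reads in any microglia library.

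All 4 hydrolases of glycoprotein glycans and glycogen rose, Fuca1 (fucosidase) by 0.91 ± 0.07, Gaa by 0.82 ± 0.11, Man2b1 by 0.74 ± 0.18 and Manba (beta-mannosidase) by 0.49 ± 0.09. So did the 3 enzymes of acyl lipids: Plbd2 by 0.82 ± 0.10, Lipa (acid lipase, which splits cholesteryl esters) by 0.81 ± 0.10 and Ppt1 (palmitoyl-protein thioesterase) by 0.71 ± 0.08. Of the peptide-cleaving members Ctsa (protective protein, which also stabilises Glb1 and Neu1) rose by 1.04 ± 0.11 and Tpp1 by 0.38 ± 0.09. Lgmn, which cleaves after asparagine and processes cathepsins, fell: it stood at 2882, 2529, 2965 and 3420 CPM in WT libraries and at 2063, 2021, 2103, 1941 and 2279 in APP libraries. The groups did not overlap, and the log2 fold change was -0.50 ± 0.12 with an adjusted p of 0.0057. Without WT replicate 1 Lgmn kept its direction but no longer passed the threshold, which also held for Tpp1, Neu1 and Man2b1. That library is the only WT female, so without it the genotypes share 1 sex through the single APP male alone.

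Of the luminal cofactors 3 of 4 rose. Npc2, which carries cholesterol out of the lumen, stood at 411 to 435 CPM in WT and 979 to 1173 in APP, a log2 fold change of 1.30 ± 0.09 with an adjusted p of 7.1e-07. Gm2a, the activator that presents GM2 ganglioside for breakdown, stood at 160 to 218 CPM in WT and 333 to 416 in APP and rose by 0.92 ± 0.12. Grn stood at 1291 to 1512 CPM in WT and 2024 to 2922 in APP and rose by 0.67 ± 0.13. Psap, the most abundant, stood at 3326 to 3733 CPM in WT and 3432 to 4448 in APP. Its groups overlapped, and its log2 fold change of 0.15 ± 0.11 did not pass the threshold.

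Of the 7 membrane proteins 3 rose, with a class median of 0.29. Lamp1, whose promoter stretch above holds 4 matches, stood at 792, 807, 854 and 852 CPM in WT microglia and at 1445, 1330, 1379, 1507 and 1627 in APP microglia, a log2 fold change of 0.84 ± 0.09 with an adjusted p of 3.5e-05. Lamp2, its relative that also serves as a receptor of autophagy, stood at 508 to 619 CPM in WT and 783 to 909 in APP and rose by 0.51 ± 0.09. Cln3 stood at 53.3 to 63.6 CPM in WT and 71.6 to 82.7 in APP and rose by 0.34 ± 0.08, a call lost without WT replicate 1. Laptm5 stood at 2816 to 3660 CPM in WT and 3233 to 4484 in APP, with overlapping groups and a log2 fold change of 0.29 ± 0.14 that did not pass. Tmem106b, Scarb2 (a receptor in the lysosomal membrane) and Npc1 (which passes cholesterol through the membrane) did not pass either.

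**Figure D3:**
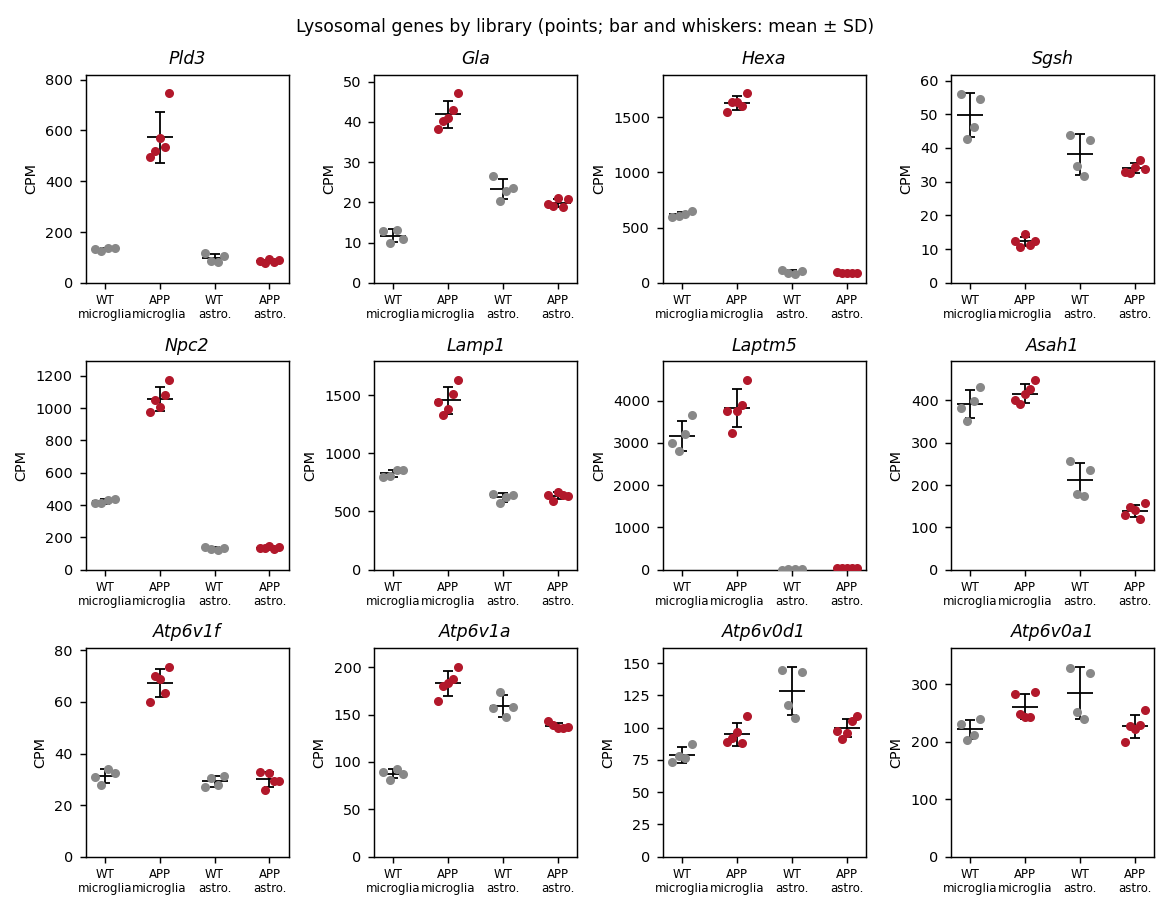
CPM of 12 of the genes in each library (points: grey WT, red APP), with mean ± SD, 4 WT and 5 APP libraries per cell type and each axis from 0. Libraries were scaled within a cell type, so levels compare genotypes within microglia or within astrocytes. In microglia APP points lie above all WT points for Pld3, Gla, Hexa, Npc2, Lamp1, Atp6v1f and Atp6v1a and below them for Sgsh, and in astrocytes WT replicates 1 and 4, the first and last of the grey points, are the high ones for Asah1, Atp6v0d1 and Atp6v0a1.

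Proton pump genes of both sectors rose in microglia. Of the 14 pump genes 10 rose and 0 fell, with a median log2 fold change of 0.48: 7 of 8 V1 genes, 2 of 4 V0 genes and 1 of 2 accessory genes, a split that was not tested. The genotypes did not overlap for 11 of the 14, APP being higher. Atp6v1f stood at 31, 27.7, 34.2 and 32.3 CPM in WT and at 60.2, 70.2, 69.0, 63.6 and 73.5 in APP, a log2 fold change of 1.05 ± 0.10 with an adjusted p of 9e-06. An annotated copy matches its transcript at 97.5% over 360 bases, so the split of its reads is uncertain. Atp6v1a, the subunit that splits ATP, stood at 80.9 to 92.3 CPM in WT and 164 to 200 in APP and rose by 1.00 ± 0.08, and its partner Atp6v1b2 rose by 0.75 ± 0.08. Atp6v1c1, a stalk subunit that holds V1 to V0, stood at 94.3 to 109 CPM in WT and 172 to 204 in APP and rose by 0.79 ± 0.08. Atp6v1g1, Atp6v1d and Atp6v1e1 rose by 0.58 ± 0.10, 0.47 ± 0.09 and 0.37 ± 0.07, and Atp6v1h, a regulatory subunit, did not pass.

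Of the V0 sector Atp6v0b and Atp6v0a1 rose by 0.50 ± 0.11 and 0.25 ± 0.09, the latter at an adjusted p of 0.049 that was lost under 13 of 20 alternatives. Atp6v0d1 stood at 73.0 to 87.4 CPM in WT and 87.8 to 109 in APP, without overlap but with an adjusted p of 0.055. Atp6ap1 stood at 305 to 354 CPM in WT and 410 to 529 in APP and rose by 0.49 ± 0.11. The calls of Atp6v0b, Atp6ap1, Atp6v1d and Atp6v1e1 were lost without WT replicate 1, where 25 of the 51 genes rose and 1 fell. In that fit 19.8% of all genes tested were called in either direction, against 38.3% with all libraries.

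In astrocytes fewer of the genes were called, most of them lower in APP mice, and the calls of the falls rested on WT replicate 1. Of the 51 genes 3 rose and 15 fell, against 12.1% of the 14957 genes tested that rose, 13.5% that fell and 25.6% in either direction. The median log2 fold change was -0.20, against 0.01 over all genes. APP libraries were higher without overlap for 3 genes and lower for 7, where 9.91% and 11.5% of all genes did so. The 51 genes summed to 10269 and 9792 CPM in WT replicates 1 and 4, to 8355 and 8145 in WT replicates 2 and 3 and to 7892 to 8612 in APP, so WT replicates 2 and 3 lay within the APP range. Without WT replicate 1, the only WT female, 1 of the 51 genes was called (Laptm5) and 34 of all genes, while the median of the 51 was -0.15. Without WT replicate 4 alone 15 of the 51 were called, 13 of them lower, with a median of -0.20, and 3576 of all genes. Without both replicates 1 of the 51 and 142 of all genes were called, and the median was -0.04. With the endothelial marker level added as a covariate 1 member and 469 of all genes were called, and the median was -0.05. All 18 called genes kept their direction in these fits. Of the 10 astrocyte markers 7 fell and 1 rose in the same comparison. Of 10 markers of ependyma and choroid plexus 8 rose, their sum being 129 to 1193 CPM in WT and 847 to 1396 in APP astrocytes, and in microglia 4 of the 5 tested rose, at 10.0 to 323 and 203 to 390 CPM. The part of these markers in the lysosomal changes was not tested.

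By class, 7 of 26 hydrolases fell and 2 rose, 7 of 14 pump genes fell, 1 of 7 membrane proteins fell and 1 rose, and 0 of 4 cofactors was called. The shares that fell were 26.9% of hydrolases, 50% of pump genes and 14.3% of membrane proteins, against 13.5% of all genes tested. The shares that rose were 7.69%, 0% and 14.3%, against 12.1%. The membrane proteins were thus near the share of all genes in both directions. Grn, with the largest change among the cofactors, stood at 107 to 151 CPM in WT and 116 to 134 in APP, with overlapping groups and a log2 fold change of -0.19 ± 0.11 that did not pass. Asah1, which splits ceramide, stood at 256, 180, 175 and 235 CPM in WT and at 128, 149, 140, 121 and 157 in APP, so that all APP libraries lay below all WT libraries. Its log2 fold change was -0.74 ± 0.13 with an adjusted p of 0.0094, and -0.48 with an adjusted p of 0.18 without WT replicates 1 and 4. Smpd1, which makes ceramide from sphingomyelin, stood at 404, 271, 245 and 369 CPM in WT and 216 to 256 in APP, with the groups overlapping, and fell by 0.63 on the log2 scale. Idua (iduronidase), Plbd2, Glb1, Tpp1 and Neu1 fell by 0.66, 0.64, 0.43, 0.42 and 0.35, Glb1 at an adjusted p of 0.0498. Npc1 fell by 0.65 with no overlap.

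Of the pump genes in astrocytes 3 of 4 V0 genes fell (Atp6v0a1, Atp6v0d1 and Atp6v0b, by 0.47, 0.44 and 0.38) and 4 of 8 V1 genes (Atp6v1h, Atp6v1e1, Atp6v1c1 and Atp6v1b2, by 0.37, 0.36, 0.25 and 0.23). Atp6v0a1 stood at 328, 252, 240 and 319 CPM in WT and at 199, 227, 223, 229 and 256 in APP. Its WT replicates 2 and 3 overlapped with APP, and WT replicates 1 and 4 were the high ones. All APP libraries lay below all WT libraries for 5 pump genes: Atp6v1a at 147 to 174 CPM in WT and 136 to 144 in APP, which did not pass the test, and the 4 V1 genes named above. Atp6v1c1 stood at 45.4 to 48.4 CPM in WT and 37.2 to 41.2 in APP, with the 4 WT libraries close together.

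**Figure D4:**
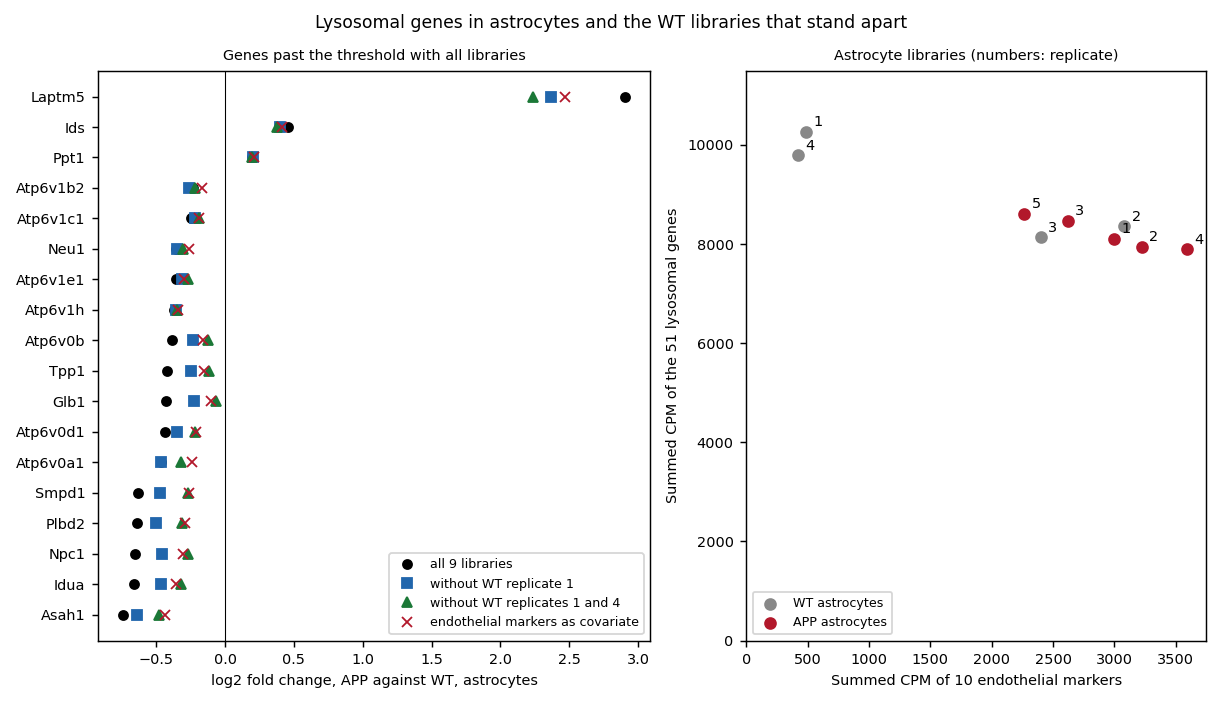
Left, log2 fold change of the 18 genes called in astrocytes, with all 9 libraries and in 3 alternative fits. Right, summed CPM of the 51 genes against that of 10 endothelial markers in each astrocyte library (numbers are replicates), where WT replicates 1 and 4 lie at the upper left with 488 and 419 CPM of endothelial markers and WT replicates 2 and 3 lie among the APP libraries.

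Laptm5, Ids and Ppt1 rose in astrocytes. Laptm5 stood at 2.88, 7.57, 8.56 and 5.67 CPM in WT and at 38.4, 31.5, 41.4, 32.5 and 30.7 in APP, a log2 fold change of 2.91 ± 0.27 with an adjusted p of 0.0013. Over the same libraries 9 of 10 microglial markers rose, and their ratio to the microglia library of the same mouse put microglial RNA at 0.0795% to 0.161% of WT astrocyte libraries and 0.480% to 0.817% of APP ones. At these shares microglial RNA would make up 84.3% of the Laptm5 level in WT astrocytes (68.1% to 118% by library) and 88.5% in APP astrocytes (83.7% to 95.3%). That part was taken off by library, with negative remainders set to 0. The log2 ratio of the APP to the WT mean was then 1.72, against 2.5 before. In WT astrocytes, scaled over all 18 libraries, the part was 4.78 of 5.66 CPM, so 1.72 rests on small remainders. How much of the rise was microglial RNA was not tested further. In APP astrocytes the part was 28% for Man2b1, 15.4% for Grn, 14.3% for Hexa, 12.5% for Lgmn and 12.4% for Gusb, none of them called, and under 10% for the other 45 genes, with a median over the 51 genes of 0.219% in WT and 1.73% in APP. Ids, which removes sulfate from heparan and dermatan sulfate, stood at 131, 140, 162 and 144 CPM in WT and at 198, 175, 198, 187 and 178 in APP, with no overlap. It rose by 0.45 ± 0.08 with an adjusted p of 0.0097, and by 0.38 with an adjusted p of 0.17 without WT replicates 1 and 4. Ppt1 rose by 0.20 ± 0.06 at an adjusted p of 0.049, a call lost under 17 of 21 alternatives.

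The response to the APP genotype differed between the cell types for most of the set. Tested as an interaction over all 18 libraries, the log2 fold change in microglia was higher than that in astrocytes for 38 of the 51 genes and lower for 3, against 12.5% and 8.91% of the 15550 genes tested and 21.4% in either direction. The median difference was 0.82, against 0.04 over all genes. Of the 38 genes, 24 rose in microglia and were not called in astrocytes, 9 rose in microglia and fell in astrocytes (Glb1, Tpp1, Neu1, Plbd2, Atp6v0a1, Atp6v0b, Atp6v1b2, Atp6v1c1 and Atp6v1e1), 4 fell in astrocytes only by the test (Asah1, Idua, Atp6v0d1 and Atp6v1h) and 1, Ppt1, rose in both, in astrocytes by the call just described. The difference was largest for Pld3 at 2.36 ± 0.20, Gla at 2.09 ± 0.15 and Glb1 at 1.97 ± 0.20. The 3 genes with the opposite difference were Laptm5 at -2.56 ± 0.32, Sgsh at -1.77 ± 0.17 and Ids at -0.54 ± 0.13. At the shares given above, most of the Laptm5 level in astrocytes would be microglial RNA. Gla stood at 20.4 to 26.5 CPM in WT astrocytes and 18.9 to 21.0 in APP astrocytes, and Sgsh at 31.6 to 43.9 and 32.6 to 36.5. By class the difference was positive and called for 20 of 26 hydrolases, 3 of 4 cofactors, 3 of 7 membrane proteins and 12 of 14 pump genes. With the mouse as a block, Man2b1 (adjusted p = 0.042 without the block) and Atp6ap1 (0.035) no longer passed. Without the mouse of WT replicate 1 the count was 19 higher and 2 lower, and 5.45% of all genes tested were called in either direction.

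**Figure D5:**
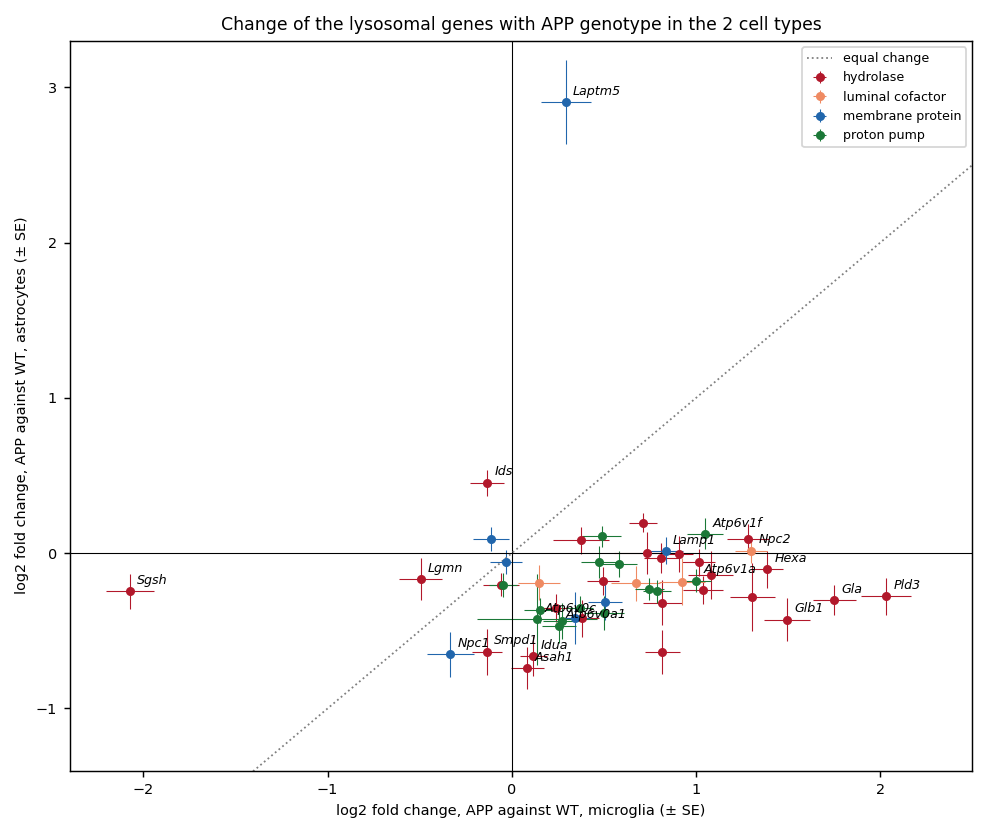
Log2 fold change of APP against WT (± SE) of the 51 genes in microglia (x axis) and astrocytes (y axis), coloured by class, with a dotted line at equal change. Most genes lie to the right of 0 and near or below 0 on the y axis, Sgsh lies at -2.07 in microglia, and Laptm5 lies at 2.91 in astrocytes.

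Other lysosomal genes were read from 4 further lists, with up to 4 called genes named per list by lowest adjusted p. Each list is called by its heading below: hydrolases, membrane proteins, pump genes or delivery genes. Of 23 other hydrolases tested in microglia 7 rose and 6 fell, 30.4% and 26.1% against 19.1% and 19.2% of all genes, with Dpp7 (a dipeptidyl peptidase) at 1.99 ± 0.08 and Scpep1 at 1.07 ± 0.09, while Acp2 (acid phosphatase) stood at -0.62 ± 0.09. Of 29 other membrane proteins 14 rose and 7 fell, 48.3% and 24.1%, with the lowest adjusted p for Cd63 at 1.88 ± 0.09, Cd68 at 1.36 ± 0.11, the transporter Slc15a3 at 1.04 ± 0.09 and the metal transporter Slc11a1 at 0.89 ± 0.09. The ion channel genes Mcoln3 and Mcoln2, named after their values were seen, went from 0 to 2 and 0 to 3 reads in WT microglia libraries to 34 to 48 and 17 to 28 in APP ones. Of 14 other pump subunits and assembly factors 5 rose and 3 fell, 35.7% and 21.4%. Atp6v0d2, a second form of the V0 d subunit known from osteoclasts, had 1, 3, 0 and 2 reads in WT microglia libraries and 526, 614, 655, 667 and 1036 in APP libraries, and 0 reads in each WT astrocyte library against 2 to 26 in APP ones. Atp6v0a2 stood at -0.88 ± 0.10 and Atp6v0e at 0.79 ± 0.12. Of 18 genes of delivery to the lysosome 5 rose and 2 fell, 27.8% and 11.1%, with Gnptab and Gnptg, the subunits of the enzyme that starts the mannose 6-phosphate tag of hydrolases, at 1.29 ± 0.08 and 1.01 ± 0.10, the receptor-binding adaptor Gga2 at 0.85 ± 0.11 and the sorting receptor Sort1 at -0.64 ± 0.11.

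In astrocytes the further lists gave 1 rise and 7 falls among 23 hydrolases, 3 and 5 among 27 membrane proteins, 1 and 2 among 15 pump genes and 0 and 3 among 18 delivery genes. In the same order the shares were 4.35% and 30.4%, 11.1% and 18.5%, 6.67% and 13.3%, and 0% and 16.7%. Of all genes tested in astrocytes 12.1% rose and 13.5% fell. Among the rises were Cd68, Slc15a3, Slc11a1 and Atp6v0d2, which accompanied the rise of the microglial markers given above. The lowest adjusted p-values among the falls on the hydrolase list belonged to Naaa at -0.69 ± 0.11, Epdr1 at -0.48 ± 0.10 and Dnase2a at -0.81 ± 0.17. On the other lists they belonged to Abcb9 at -1.04 ± 0.19 among membrane proteins and to Atp6v1g2 at -0.63 ± 0.17 and Atp6v0e at -0.40 ± 0.11 in the pump. In delivery they belonged to Cln6, Sumf2 and Nagpa at -0.48 ± 0.12, -0.61 ± 0.17 and -0.37 ± 0.10. By the interaction test the microglial response was higher for 11 of 24 hydrolases and lower for 1, higher for 11 of 29 membrane proteins and lower for 5, higher and lower for 1 each of 15 pump genes, and higher for 4 and lower for 1 of 18 delivery genes. In the same order the shares were 45.8% and 4.17%, 37.9% and 17.2%, 6.67% and 6.67%, and 22.2% and 5.56%. Over all genes tested they were 12.5% and 8.91%. The largest differences among those with the lowest adjusted p were Dpp7 at 2.38 ± 0.14 and Cd63 at 2.33 ± 0.17, and Gnptab and Atp6v0e stood at 1.34 ± 0.10 and 1.24 ± 0.17. Atp6v0a2 stood at -0.85 ± 0.11.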

How the data were processed

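Microglia and astrocytes of 9 mice were compared by genotype. The submitters' processing notes name build mm10, the aligner STAR 2.7.3a with SAMtools 1.9, Trimmomatic 0.39, FastQC 0.11.8, and limma 3.46.0 beside edgeR 3.32.1. The sources used here do not name the read counter, its annotation or its strand setting. The authors deposited whole-number read counts per gene symbol for each cell type. They also deposited values on a log2 scale, for 12902 microglial and 14141 astrocytic genes, which served as an alternative. Per the labels, outliers had been left out beforehand.

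Counts were fitted with edgeR 4.0.16 in R 4.3.3: filterByExpr (minimum count 10, minimum total 15), TMM scaling, the quasi-likelihood test and Benjamini-Hochberg adjustment over all genes tested, with sex as covariate for genotype (cell type by sex in the interaction) and none between cell types. CPM were scaled within a cell type and RPKM over all 18 libraries, with exon lengths from GENCODE vM21. Libraries of the same mouse, paired by the numbers in the library names, deviated together (r of 0.0587 to 0.290 over 9 pairs, 7 of 9 best with their own mouse), and the mouse was a block as an alternative. On simulated data with 200 genes changed by 1 on the log2 scale, 69% were recovered over 13116 genes in microglia and 47.5% over 14957 in astrocytes. For the interaction 39% were recovered over 15550 genes, and between cell types 56.5% in WT and 89% in APP mice. Apart from the set change, each gene was simulated at a single mean level over all libraries, unlike the measured groups.

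The members and lists, and the alternatives without WT replicates 1 and 4 and with endothelial markers, were chosen with earlier results of these data known. Per-library values, in full or as a range, are given for the 3 largest changes of each class in microglia, the largest in astrocytes, the 3 largest differences between cell types in each direction and the 2 highest levels of each class in a cell type. Gaa, Atp6v0b and Tmem106b, among the highest levels, are given without them. The microglial share of an astrocyte library is the median, over 10 marker genes, of its level divided by that in the same mouse's microglia. Other lists show up to 4 called genes by adjusted p. Other alternatives were DESeq2 1.42.0 (size factors, Wald test), limma 3.58.1 voom, no filter, 50 counts in 4 libraries, leaving out the sex covariate, a single sex, leaving out 1 library at a time and the replicate number as a block. Copies were found with blastn 2.17.0 and motifs with Python 3.11.15. Protein sequences and 8 promoter windows were not used here, and some genes of the other lists are counted but not reported here by name.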

Additional observations from a re-analysis of the deposited data

Results flagged for a closer look

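The response to the APP genotype differed between microglia and astrocytes by the interaction test (edgeR, adjusted p under 0.05) for 41 of the 51 genes, which brings each of them here. In the log2 fold change of microglia minus that of astrocytes, the hydrolases with a higher response in microglia were Pld3 (2.36), Gla (2.09), Glb1 (1.97), Galns (1.63), Hexa (1.54), Plbd2 (1.50), Ctsa (1.32), Naglu (1.27), Gusb (1.24), Gaa (1.18), Galc (1.12), Fuca1 (0.96), Lipa (0.89), Asah1 (0.87), Tpp1 (0.85), Idua (0.82), Man2b1 (0.78), Manba (0.72), Neu1 (0.64) and Ppt1 (0.56). Among cofactors they were Npc2 (1.33), Gm2a (1.16) and Grn (0.91), and among membrane proteins Lamp1 (0.87), Lamp2 (0.87) and Cln3 (0.80). The pump genes were Atp6v1a (1.23), Atp6v1c1 (1.08), Atp6v1b2 (1.02), Atp6v1f (0.97), Atp6v0b (0.93), Atp6v1e1 (0.77), Atp6v0a1 (0.77), Atp6v0d1 (0.75), Atp6v1g1 (0.70), Atp6v1d (0.57), Atp6v1h (0.57) and Atp6ap1 (0.43). The genes with the lower response in microglia were Laptm5 (-2.56), Sgsh (-1.77) and Ids (-0.54). Every one of these values kept its sign in the 17 alternatives run. By the marker shares given above, microglial RNA would make up 84.3% of the Laptm5 level in WT astrocytes and 88.5% in APP astrocytes.

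A single library stood outside the spread of its group in 10 of 204 sets of libraries (51 genes, 4 groups), where about 1 in 20 does so by chance. APP microglia replicate 5 was the highest of its group for Grn (2922 CPM), Gusb (619 CPM), Galns (51 CPM) and Atp6ap1 (529 CPM). WT microglia replicate 4 was the highest for Atp6ap1 (354 CPM) and Scarb2 (388 CPM), and WT microglia replicate 2 the lowest for Lipa (132 CPM). In APP astrocytes replicate 5 was the highest for Gm2a (249 CPM) and Atp6v1d (50.0 CPM), and replicate 4 the lowest for Naglu (25.1 CPM).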

How the results depend on the processing

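Of the members called, 24 of 36 in microglia kept their call in all 20 alternatives, as did 19 of 41 for the difference between cell types in 17, 39 of 44 and 46 of 48 for the cell types in WT and APP mice in 10 and 11, and 0 of 18 in astrocytes in 21. No called member changed sign in any alternative. Among members not called, the sign turned in 10 of 299 values in microglia, 61 of 692 in astrocytes and 12 of 169 for the difference. Of the values given in the report these were Arsa in microglia (0.046 in females alone, 0.054 without APP replicate 1, and -0.17 to 0.05 over the libraries left out in turn) and Grn in astrocytes (0.029 with endothelial markers as covariate and 0.021 without WT replicates 1 and 4).

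Counts moved as follows. Without WT replicates 1 and 4, 2330 genes were called in microglia, 142 genes and 1 member in astrocytes, and 922 genes and 20 members for the difference. With 1 library left out the ranges were 2641 to 5085 genes in microglia, 34 to 4217 genes and 1 to 19 members in astrocytes, and 855 to 3303 genes and 21 to 41 members for the difference, each lowest without WT replicate 1. Without APP replicate 3, 11 members were called in astrocytes. Males alone (3 WT against 1 APP, whose spread is assumed to be that of the others) gave 2112 genes in microglia, and 0 genes and 0 members in astrocytes by edgeR, with 1575 genes and 2 members at an unadjusted p under 0.05. Females alone (WT replicate 1 against 4 APP, under the same assumption) gave 4223 genes and 34 members in microglia and 4916 genes and 23 members in astrocytes, 21 of them lower. Endothelial markers as covariate left 469 genes and 1 member in astrocytes. The cause of these shifts was not tested. With the replicate number as a block, 1907 genes and 3 members were called in astrocytes. That number is only a name: deviations of same-numbered WT and APP libraries correlated at -0.288 to 0.11 in astrocytes and -0.221 to 0.0124 in microglia, and 0 libraries correlated best with their own number. Without a filter on low counts the median over all genes shifted from -0.02 to -0.13 in WT and from -0.05 to -0.20 in APP for microglia against astrocytes. Near-identical copies (Atp6v0c, Atp6v1f, Atp6v1g1, Atp6ap2) and overlapping exons limit single genes, and Atp6v0c rests on 11 to 34 counts per library.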
